A study of Arabidopsis thaliana with 12 samples.

Results

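Genes of the flowering pathway of Arabidopsis thaliana, 10 in all, were followed across the 4 genotypes of the series, with each gene taken by its locus: SOC1 (AT2G45660), FT (AT1G65480), TSF (AT4G20370), AGL24 (AT4G24540), FUL (AT5G60910), LFY (AT5G61850), AP1 (AT1G69120), SEP3 (AT1G24260), SNZ (AT2G39250) and SMZ (AT3G54990). Every array probe that maps to 1 of these 10 loci was used, which gave 14 probes among the 25383 loci with a probe. FT, FUL, SEP3 and SNZ had 2 probes each, and the other 6 genes had 1. SOC1, AGL24, FUL, SEP3, SNZ and SMZ were bright enough to be tested, and these 6 stood among 18977 tested genes. FT, TSF, LFY and AP1 were at or near background and were not tested.

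FT and TSF encode mobile proteins, known as florigens, that are made in the phloem companion cells of leaves and travel to the shoot apex, where they act with the bZIP factor FD. At the apex the MADS-box factors SOC1, AGL24 and FUL collect signals from day length, age and temperature and lead to expression of LFY and AP1, which give a new primordium its floral identity. SEP3 encodes a MADS-box partner that joins the floral identity proteins in DNA-binding complexes. SNZ and SMZ encode AP2-type repressors of flowering, and SMZ is known to repress FT. Of the mutated genes, ARF2 codes for a transcription factor of auxin signalling. GNC and GNL code for a pair of GATA factors that promote greening and are known as repressors of SOC1.

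The data were spot intensities from 12 one-colour Agilent arrays, each with Cy3-labelled material from whole seedlings of the Col-0 accession. The seedlings were 10 days old and untreated, and were grown on GM medium with 16 h of light at 150 µE and 8 h of dark, with harvest midway through the light period. The genotypes were the arf2-8 single mutant, the gnc gnl double mutant, seedlings labelled arf2-8 gnc gnl, and wild type (WT), with 3 biological samples each, so n = 3 libraries per genotype throughout. The labels name no allele for gnc or gnl, and no transgene. The 75th percentile of the signal ran from 2062 to 2872 intensity units over the arrays, and the share of probes well above background ran from 64.6% to 70.2%. The arrays filled 3 slides of 4. On slide 1 lay arf2-8 replicate 1 with all WT arrays. On slide 2 lay the other two arf2-8 arrays with the first 2 replicates labelled arf2-8 gnc gnl. On slide 3 lay the last replicate with that label, beside all gnc gnl arrays.

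The mutated genes were read first as a check of the labels, each as a percentage of its mean in WT. ARF2 (AT5G62000) stood at 3.04% in arf2-8 replicate 3 and was not well above background in the other two arf2-8 libraries. GNC (AT5G56860) stood at 4.404%, 5.88% and 3.91% in the gnc gnl libraries, and GNL (AT4G26150) did not rise clearly above background in any of them (at least 9.50-fold lower than in WT, limma adjusted p = 1.53e-05). Under the label arf2-8 gnc gnl, GNC was low, at 6.36%, 5.64% and 5.60%. The other label genes went against that name there, since ARF2 stood at 56.7%, 54.4% and 70.5% and GNL at 167%, 178% and 179% of WT. These 3 libraries are therefore called the labelled-triple libraries, by their label only, and no value below rests on their being a triple mutant.

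SEP3 was the member that differed most between the single arf2-8 mutant and the gnc gnl mutant. It fell in arf2-8 and rose in gnc gnl against WT. SOC1 fell in gnc gnl, and the repressor SMZ rose in the same libraries. The repressor SNZ rose in arf2-8. In the plot of changes from WT, these 5 changes and the rise of SMZ in the labelled-triple libraries are the ones that passed the test (limma, Benjamini-Hochberg adjustment over all tested genes, threshold 0.05).

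**Figure D1:**
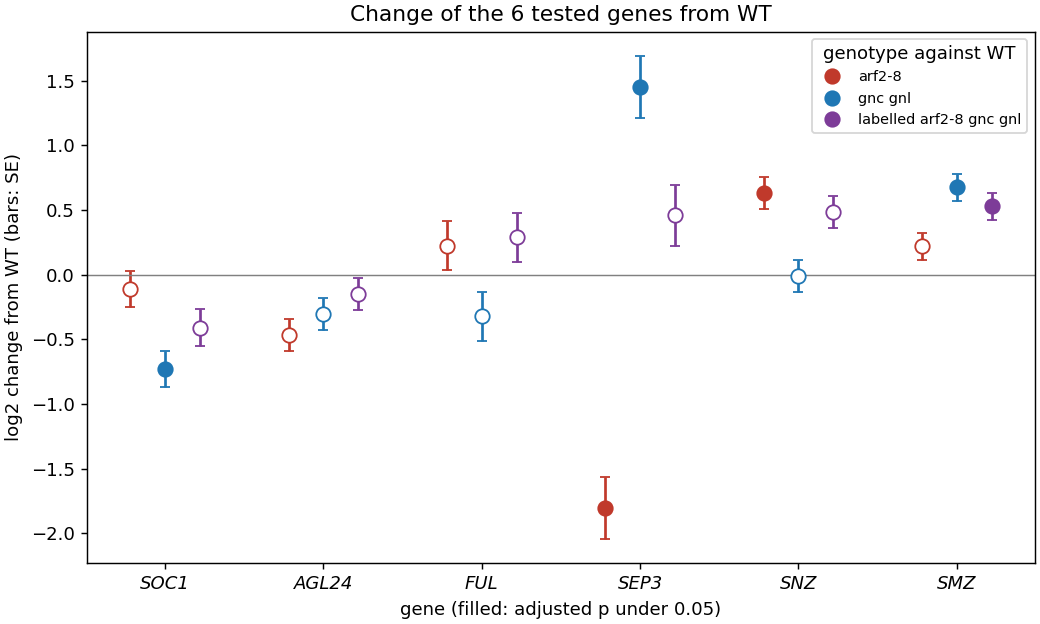
Log2 change of the 6 tested genes from WT (vertical axis; bars, SE) in arf2-8, gnc gnl and the labelled-triple libraries (labelled arf2-8 gnc gnl), with filled points for an adjusted p under 0.05. SEP3 lies at -1.80 in arf2-8 and at 1.45 in gnc gnl, and SOC1 at -0.73 in gnc gnl.

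Counted over the 6 tested members, 2 passed in arf2-8 against WT, where 5.69% of all tested genes passed. Of these 2, 1 was higher (2.49% of all genes were) and 1 lower (3.2%). In gnc gnl against WT, 3 members passed, where the share of all genes was 24.6%; 2 were higher (12.6%) and 1 lower (11.9%). In the labelled-triple libraries against WT, 1 member was higher and 0 were lower, where 2.27% of all genes passed, 1.33% higher and 0.943% lower. Against arf2-8, 1 member was higher and 0 lower in these libraries, where 8.96% of all genes passed, 4.27% higher and 4.69% lower. Against gnc gnl, 1 was higher and 1 lower, where 11.7% of all genes passed, 5.28% higher and 6.39% lower. Set directly against gnc gnl, arf2-8 had 3 members higher and 2 lower, where 36.4% of all genes passed, 16.9% higher and 19.5% lower. Over all 4 genotypes, 4 members varied by the moderated F test (SEP3, SMZ, SNZ and SOC1), where 33.3% of all genes did. The median log2 change of the 6 members from WT was 0.06 in arf2-8, -0.16 in gnc gnl and 0.38 in the labelled-triple libraries, where the medians of all tested genes were 0.00, 0.01 and -0.01. With 6 genes, these counts describe the members only, and comparisons against WT share the same 3 WT arrays.

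**Figure D2:**
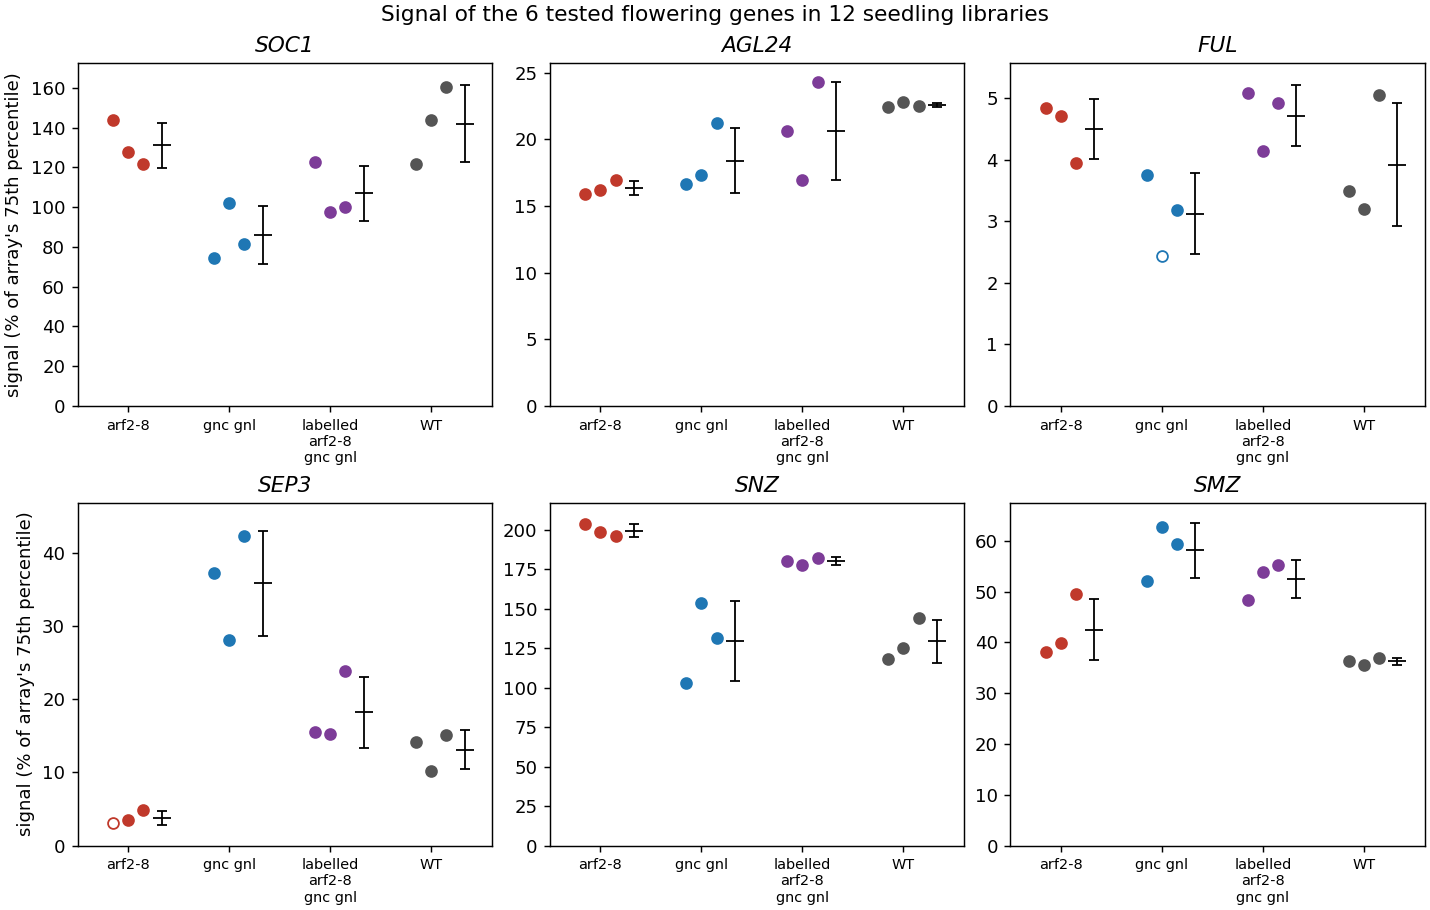
Signal of each tested gene (vertical axis, percent of the 75th percentile of the array) in the 12 libraries, with the mean and SD of 3 libraries beside each genotype and open points for spots not well above background. SEP3 runs from 3.01% in an arf2-8 library to 42.3% in a gnc gnl library, and SNZ is tightly grouped in arf2-8 and in the labelled-triple libraries.

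SEP3 was read first because its libraries differed most. All levels are signals as a percentage of the 75th percentile of the same array, and they compare libraries for 1 probe, not different genes. Its brighter probe stood at 3.01%, 3.49% and 4.85% in arf2-8, at 37.2%, 28.0% and 42.3% in gnc gnl, at 15.5%, 15.2% and 23.8% in the labelled-triple libraries, and at 14.2%, 10.1% and 15.1% in WT. The arf2-8 libraries all lay under every other library and the gnc gnl libraries all lay over them. In arf2-8 the spot was well above background on 2 of 3 arrays, and replicate 1, at 3.01%, was not. The group means were 3.79% ± 0.95 in arf2-8, 35.8% ± 7.2 in gnc gnl, 18.2% ± 4.9 in the labelled-triple libraries and 13.1% ± 2.6 in WT (SD, n = 3 libraries).

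SEP3 fell in arf2-8, with a log2 change of -1.80 ± 0.24 from WT (SE, limma adjusted p = 0.00139), a size that includes the 1 arf2-8 spot at background. It rose in gnc gnl by 1.45 ± 0.24 (limma adjusted p = 0.00234), a 2.73-fold higher level than in WT. Both calls held with any 1 array left out. In the labelled-triple libraries SEP3 was 0.46 ± 0.24 above WT (limma adjusted p = 0.324); no library of the 2 groups overlapped, but the difference did not pass. It stood higher there than in arf2-8, by 2.26 ± 0.24 (limma adjusted p = 0.00151), and lower than in gnc gnl, by a log2 change of -0.99 ± 0.24 (limma adjusted p = 0.0247). The second call was lost, at adjusted p from 0.0676 to 0.0946, when replicate 1 or 2 of those libraries or replicate 1 or 3 of gnc gnl was left out. Set directly against gnc gnl, arf2-8 had a log2 change of -3.25 ± 0.24 (limma adjusted p = 1.21e-05).

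The dimmer SEP3 probe gave the same order of genotypes. It stood at 0.722%, 0.716% and 1.82% in arf2-8, with no array well above background, and at 15.3%, 12.2% and 17.3% in gnc gnl. In the labelled-triple libraries it stood at 5.84%, 5.68% and 9.80%, and in WT at 5.87%, 3.72% and 6.18%. Since the arf2-8 signal is only a bound, this probe was at least 1.55-fold lower in arf2-8 than in WT (fitted with every probe as a feature, limma adjusted p = 0.00330). It was 2.88-fold higher in gnc gnl than in WT (log2 change 1.53 ± 0.36, limma adjusted p = 0.0127). On this probe the labelled-triple libraries did not pass against gnc gnl (log2 change -1.10 ± 0.36, limma adjusted p = 0.0714).

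Slides differed between the genotypes, so the SEP3 values were also read with the slide taken into account. No slide held both gnc gnl and WT arrays, and only arf2-8 replicate 1 and labelled-triple replicate 3 link their slides. With the slide as a fixed block, the change of SEP3 in gnc gnl from WT was 0.37 (limma adjusted p = 0.758), where a random slide block gave 1.43 (limma adjusted p = 0.00329). Within slide 1, the single arf2-8 array, whose SEP3 spot was not well above background, lay at -2.10 from WT on the log2 scale. Within slide 2, SEP3 was 1.90 higher in the labelled-triple libraries than in arf2-8 (limma adjusted p = 0.0582). The labelled-triple libraries lay at -0.57 from gnc gnl with the fixed block (limma adjusted p = 0.331), a value that rests on the 1 labelled-triple array of slide 3. For gnc gnl against WT, slide and genotype cannot be told apart without that link.

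**Figure D3:**
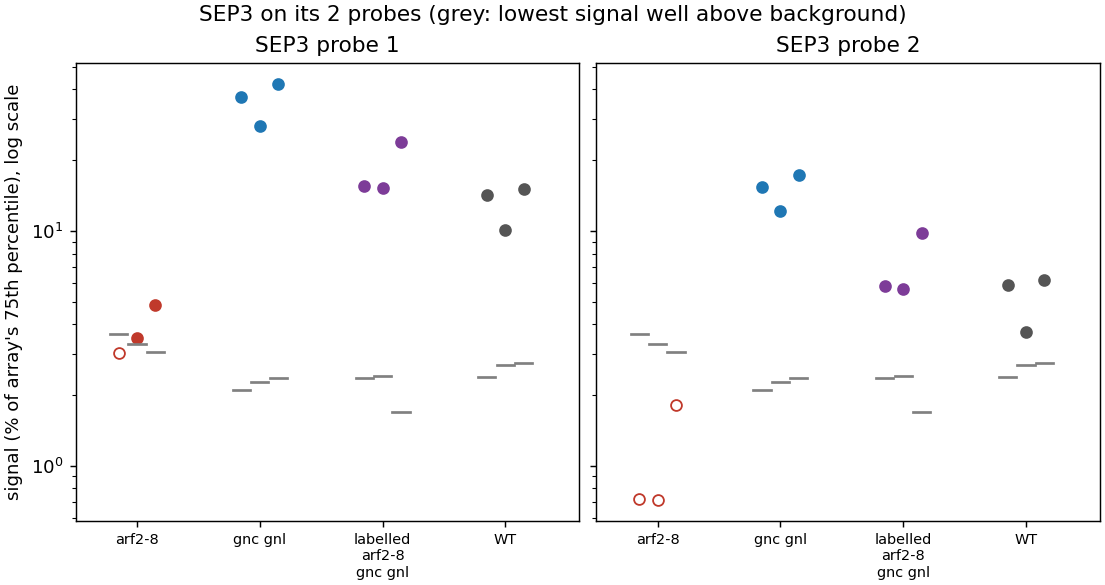
SEP3 signal on its 2 probes (vertical log axis, percent of the 75th percentile of the array) in the 12 libraries; grey marks give the lowest signal well above background on each array, and open points were not well above background. On both probes arf2-8 is lowest and gnc gnl highest, and the arf2-8 libraries reach background on the dimmer probe.

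SOC1 encodes the MADS-box factor through which several flowering signals act. It stood at 144%, 128% and 122% in arf2-8, at 74.2%, 102% and 81.4% in gnc gnl, at 123%, 97.8% and 100% in the labelled-triple libraries, and at 122%, 144% and 160% in WT. The gnc gnl libraries all lay under the WT libraries, while the arf2-8 range overlapped that of WT. The means were 131% ± 11 in arf2-8, 85.9% ± 14.5 in gnc gnl, 106.9% ± 13.8 in the labelled-triple libraries and 142% ± 19 in WT (SD, n = 3 libraries).

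SOC1 fell in gnc gnl by 0.73 ± 0.14 on the log2 scale (limma adjusted p = 0.00525), to 0.604 of the WT level. It was higher in arf2-8 than in gnc gnl by 0.62 ± 0.14 (limma adjusted p = 0.00660). In arf2-8 the change from WT was -0.11 ± 0.14 (limma adjusted p = 0.760), and in the labelled-triple libraries it was -0.41 ± 0.14 (limma adjusted p = 0.158). Those libraries lay 0.32 ± 0.14 above gnc gnl (limma adjusted p = 0.157). The fall in gnc gnl held with any 1 array left out. With the slide as a fixed block it was -0.40 (limma adjusted p = 0.634), and the difference of arf2-8 from gnc gnl was 0.42 (limma adjusted p = 0.397).

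SMZ and SNZ are repressors of the AP2 type, and they moved in different mutants. SMZ stood at 38.1%, 40.0% and 49.5% in arf2-8, at 52.2%, 62.8% and 59.5% in gnc gnl, at 48.3%, 53.8% and 55.3% in the labelled-triple libraries, and at 36.3%, 35.7% and 37.0% in WT. All 9 mutant libraries were above the 3 WT libraries. SMZ rose in gnc gnl by 0.68 ± 0.11 (limma adjusted p = 0.00185), a 1.60-fold higher level, and in the labelled-triple libraries by 0.53 ± 0.11 (limma adjusted p = 0.0290). In arf2-8 it was 0.22 ± 0.11 above WT (limma adjusted p = 0.295), and it was lower than in gnc gnl, by a log2 change of -0.46 ± 0.11 (limma adjusted p = 0.00684). The rise in the labelled-triple libraries was lost when any 1 of their arrays or of the WT arrays was left out (limma adjusted p from 0.0528 to 0.128). With the slide as a fixed block the change in gnc gnl was 0.34 (limma adjusted p = 0.545), and that of arf2-8 from gnc gnl was -0.27 (limma adjusted p = 0.437).

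SNZ stood on its brighter probe at 204%, 199% and 196% in arf2-8, at 103%, 154% and 132% in gnc gnl, at 180%, 178% and 182% in the labelled-triple libraries, and at 118%, 125% and 144% in WT. The arf2-8 libraries were the highest of the 12, and those labelled arf2-8 gnc gnl came next, while gnc gnl overlapped WT. SNZ rose in arf2-8 by 0.63 ± 0.13 (limma adjusted p = 0.0155), to 1.55-fold of WT. Its gnc gnl change was -0.01 ± 0.13 (limma adjusted p = 0.962). For the labelled-triple libraries it was 0.48 ± 0.13 (limma adjusted p = 0.0757) from WT and 0.50 ± 0.13 (limma adjusted p = 0.0301) from gnc gnl. SNZ was also higher in arf2-8 than in gnc gnl, by 0.64 ± 0.13 (limma adjusted p = 0.00296).

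The dimmer SNZ probe stood at 63.3%, 69.1% and 57.3% in arf2-8, at 24.9%, 42.9% and 32.0% in gnc gnl, at 52.2%, 52.9% and 50.3% in the labelled-triple libraries, and at 37.0%, 37.7% and 42.8% in WT. It was higher in arf2-8 than in WT by 0.69 ± 0.16 (limma adjusted p = 0.0338, each probe as a feature). Leaving out WT replicate 1 or arf2-8 replicate 1 or 2 took the arf2-8 call of the brighter probe to adjusted p values from 0.0557 to 0.0748. With the slide as a fixed block its change in arf2-8 was 0.66 from WT (limma adjusted p = 0.124) and 0.65 from gnc gnl (limma adjusted p = 0.179), so both calls were lost. The call against gnc gnl in the labelled-triple libraries was lost without any 1 of those libraries, or without gnc gnl replicate 1 or 3 (limma adjusted p from 0.0542 to 0.0868); with the fixed slide block that change was 0.51 (limma adjusted p = 0.218).

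AGL24, a MADS-box factor that acts with SOC1, showed lower values in arf2-8 that did not pass the test. It stood at 15.9%, 16.2% and 17.0% in arf2-8, at 16.7%, 17.3% and 21.2% in gnc gnl, at 20.6%, 16.9% and 24.3% in the labelled-triple libraries, and at 22.5%, 22.8% and 22.5% in WT. The arf2-8 libraries and the gnc gnl libraries all lay under WT. The log2 change was -0.47 ± 0.12 in arf2-8 (limma adjusted p = 0.0537) and -0.30 ± 0.12 in gnc gnl (limma adjusted p = 0.0970), and the F test over the 4 genotypes gave an adjusted p of 0.0516. The arf2-8 value passed without gnc gnl replicate 3 (limma adjusted p = 0.0390), without labelled-triple replicate 2 (0.0306) or without labelled-triple replicate 3 (0.0312), and the gnc gnl value passed without gnc gnl replicate 3, at -0.41 (limma adjusted p = 0.0417).

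FUL, a MADS-box factor close to AP1 in sequence, was near background. Its brighter probe stood at 4.85%, 4.72% and 3.95% in arf2-8, at 3.76%, 2.43% and 3.19% in gnc gnl, at 5.08%, 4.15% and 4.92% in the labelled-triple libraries, and at 3.50%, 3.20% and 5.06% in WT. Every genotype overlapped WT, and gnc gnl replicate 2 was not well above background. FUL was higher in arf2-8 than in gnc gnl by 0.54 ± 0.19 (limma adjusted p = 0.0435), a call that was lost in 14 of 23 alternative settings. Without gnc gnl replicate 2, the dimmest library, the difference was 0.38 (limma adjusted p = 0.151). The dimmer probe was well above background in 7 of 12 libraries. On it, only 1 of the 3 gnc gnl libraries was well above background. The labelled-triple libraries passed against gnc gnl (limma adjusted p = 0.0137, each probe as a feature), where the brighter probe gave 0.61 ± 0.19 (limma adjusted p = 0.0599).

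The 2 florigen genes and the floral identity genes LFY and AP1 gave no measurable level in most libraries. FT was not well above background on either probe in any of the 12 libraries, with values from 0.491% to 2.08% on the first probe and from 0.478% to 1.54% on the second. TSF ran from 0.423% to 0.902%, and AP1 from 0.396% to 0.744%, also below background in all 12. On the same arrays the lowest signal called well above background lay between 1.69% and 3.63%. LFY was well above background in 2 libraries, at 4.404% in labelled-triple replicate 1 and at 5.64% in WT replicate 3, and between 0.618% and 1.67% in the other 10. Below background the files hold substitute values, so no order of genotypes and no fold was read from these genes. A change in FT or TSF was not detectable at this signal, in any genotype.

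**Figure D4:**
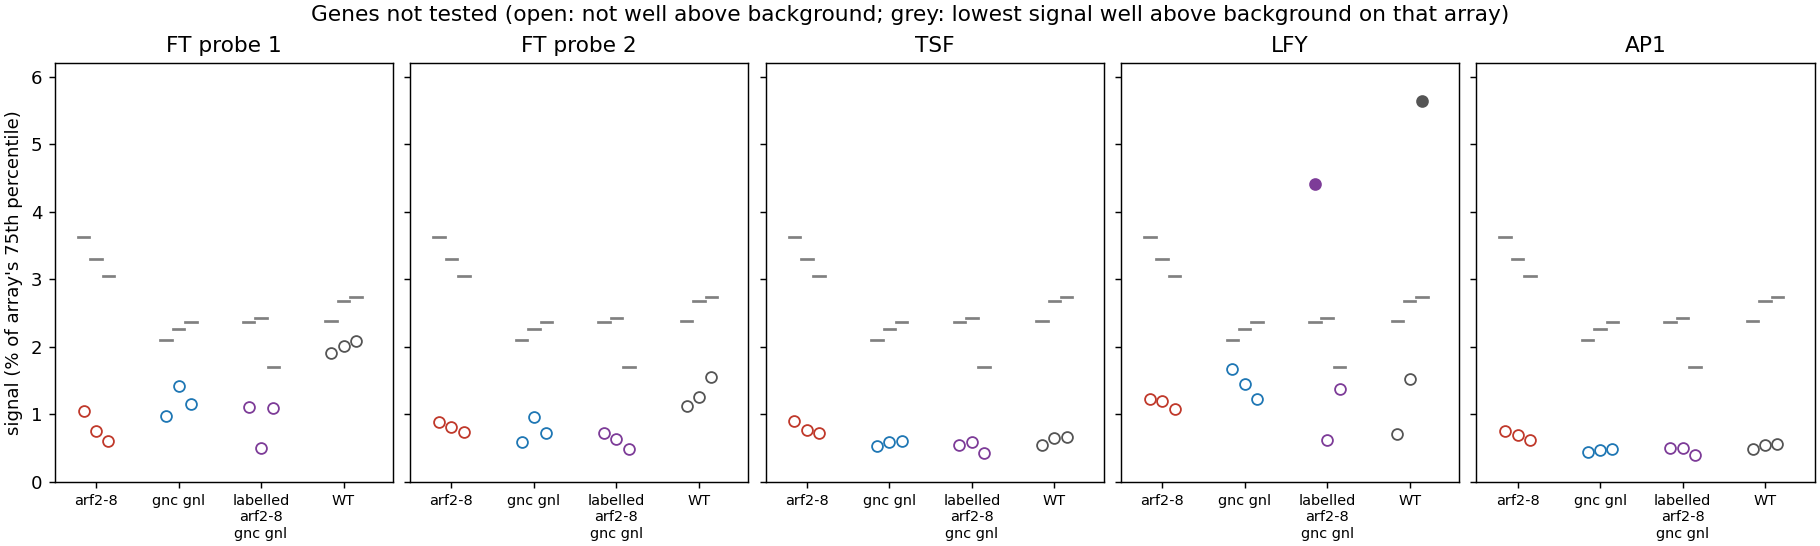
Signal of FT (both probes), TSF, LFY and AP1 (vertical axis, percent of the 75th percentile of the array) in the 12 libraries, with grey marks at the lowest signal well above background on each array. Every point lies under its mark, apart from 1 labelled-triple library and 1 WT library for LFY.

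Other genes of the flowering pathway were counted in 4 lists: photoperiod genes, repressors, promoters of flowering, and genes of floral organ and meristem identity. Of 61 genes written, 60 had a probe and 44 were tested. In arf2-8 against WT 6 were higher and 2 lower. In gnc gnl against WT 8 were higher and 8 lower. In the labelled-triple libraries 2 were higher and 0 lower. Of all tested genes 5.69%, 24.6% and 2.27% passed in these 3 comparisons. With the slide as a fixed block 3, 1 and 0 of the 44 passed, where 451, 29 and 6 of all 18977 tested genes did. No slide held both gnc gnl and WT arrays, so this limit holds for every gnc gnl change of a list gene from WT given below. Most genes that act in the flower itself were too dim, as only 3 of 13 organ and meristem identity genes were tested.

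Among 16 tested repressors, 4 were higher and 0 lower in arf2-8, 6 higher and 1 lower in gnc gnl, and 2 higher and 0 lower in the labelled-triple libraries. Of all tested genes 2.49% were higher and 3.2% lower in arf2-8, 12.6% and 11.9% in gnc gnl, and 1.33% and 0.943% in the labelled-triple libraries. FLC, the MADS-box repressor that acts in vernalization, stood at 42.6%, 42.8% and 42.6% in arf2-8 and at 51.7%, 46.2% and 41.0% in the labelled-triple libraries, against 23.9%, 26.6% and 24.2% in WT. It rose by 0.78 ± 0.09 in arf2-8 (limma adjusted p = 5.45e-04), by 0.55 ± 0.09 in gnc gnl (limma adjusted p = 0.00218) and by 0.89 ± 0.09 in the labelled-triple libraries (limma adjusted p = 0.00106). MAF4, a relative of FLC, rose by 1.18, 0.79 and 1.58 in the same order. BFT, of the FT protein family and a repressor, and TOE3, an AP2-type gene, rose in arf2-8 by 1.18 ± 0.27 and 0.70 ± 0.13.

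In gnc gnl, the AP2-type genes TOE2 and AP2 rose beside SMZ, while the AP2-type genes TOE3 and SNZ did not. TOE3 had a mean of 17.6% in gnc gnl and 19.1% in WT. SNZ changed from WT by -0.01 on its brighter probe and by -0.27 on its dimmer probe. TOE2 stood at 98.8%, 125% and 118% in gnc gnl, against 57.8%, 56.6% and 60.9% in WT, a log2 rise of 0.96 ± 0.09 (limma adjusted p = 9.16e-05). AP2 rose by 0.54 ± 0.07 (limma adjusted p = 8.26e-04), and TEM1, a repressor of FT, by 0.61 ± 0.11 (limma adjusted p = 0.00449). TOE2 was lower in the labelled-triple libraries than in gnc gnl, by a log2 change of -0.61 ± 0.09 (limma adjusted p = 0.00254).

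**Figure D5:**
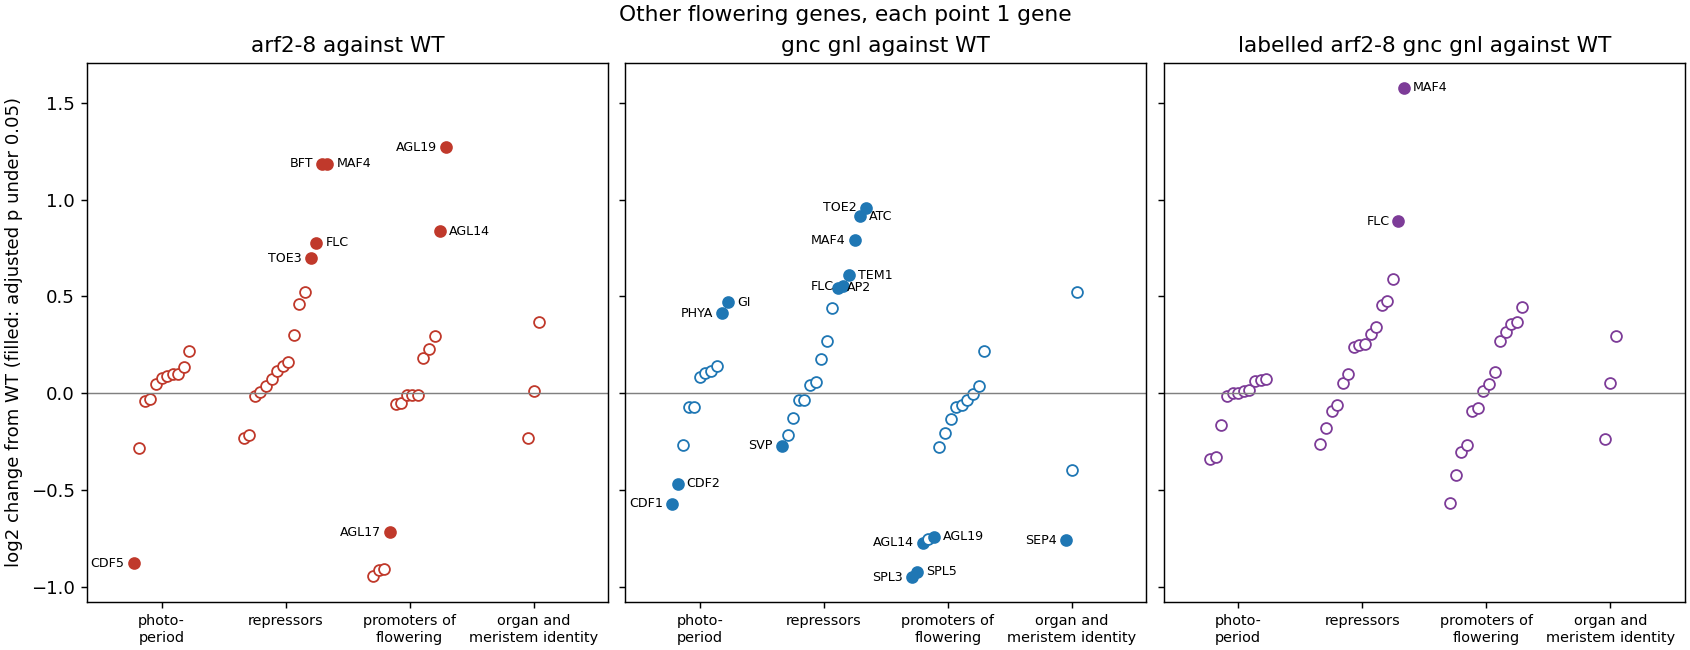
Log2 change from WT of each tested gene of 4 flowering lists (vertical axis; filled points, adjusted p under 0.05) in arf2-8, gnc gnl and the labelled-triple libraries. Among the repressors the called genes are higher, apart from SVP in gnc gnl at -0.27.

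Among 14 tested promoters of flowering, 2 were higher and 1 lower in arf2-8 (2.49% and 3.2% of all genes were). In gnc gnl 0 were higher and 4 lower (12.6% and 11.9% of all genes). The 4 lower genes in gnc gnl were SPL3 and SPL5, which encode SPL factors of the age pathway, and AGL14 and AGL19, MADS-box relatives of SOC1; SPL3 and SPL5 were singled out after their values were seen. SPL3 fell by 0.95 ± 0.24 (limma adjusted p = 0.0171) and SPL5 by 0.92 ± 0.28 (limma adjusted p = 0.0357). In arf2-8 their log2 changes of -0.91 each did not pass (limma adjusted p = 0.0525 and 0.0936). SPL5 was not well above background in gnc gnl replicate 1 (2.08%) or arf2-8 replicate 1 (2.91%), and its sizes include these spots. AGL14 was well above background in only 1 of the 3 gnc gnl libraries. Its mean was 7.60% in arf2-8, 2.54% in gnc gnl and 4.34% in WT. Between the 2 mutants the log2 difference was 1.61 ± 0.22 (limma adjusted p = 3.85e-04), a size that includes the dim gnc gnl spots. AGL19 had the same order of genotypes. It stood at 9.57%, 9.81% and 8.77% in arf2-8, against 3.92%, 2.92% and 5.15% in WT (log2 change 1.27 ± 0.20, limma adjusted p = 0.00413), while no gnc gnl library had it well above background. The size of the rise from WT includes the spot of WT replicate 2, at 2.92%, which was not well above background. AGL19 was at least 4.005-fold higher in arf2-8 than in gnc gnl (limma adjusted p = 6.65e-05).

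Among 11 tested photoperiod genes, 0 were higher and 1 lower in arf2-8 (2.49% and 3.2% of all genes were). In gnc gnl 2 were higher and 2 lower (12.6% and 11.9% of all genes). The lower gene in arf2-8 was CDF5, a DOF repressor of CO, at a log2 change of -0.88 ± 0.16 (limma adjusted p = 0.00916). In gnc gnl GI rose by 0.47 ± 0.07 and PHYA by 0.41 ± 0.06, while CDF1 fell by 0.57 ± 0.09 and CDF2 by 0.47 ± 0.09. CO itself, the activator of FT, was well above background in 1 WT library and 1 labelled-triple library and was not tested. SEP4, the other SEP gene bright enough to test, went the other way from SEP3 in gnc gnl: it stood at 21.2%, 23.7% and 26.0% there, against 36.4%, 41.6% and 41.7% in WT (log2 change -0.76 ± 0.10, limma adjusted p = 7.34e-04).

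The 5 tested genes whose log2 profile over the 12 arrays followed that of SOC1 most closely, out of 18331 with a full profile, were AT2G46550, MYB32 (AT4G34990), AT3G62550, AT1G68660 and AT1G09490. Pearson's r was 0.973, 0.955, 0.949, 0.942 and 0.940 for the 5 genes in that order, over arrays that share the 4 genotype differences. Their change from WT in gnc gnl ran from -1.20 (AT3G62550) to -0.34 (AT2G46550). Across the 12 arrays SOC1 and SMZ had an r of -0.80 and SOC1 and SEP3 one of -0.70, given as a description. With each genotype's mean removed, SOC1 and SMZ had an r of -0.07, while SOC1 and SEP3 had -0.48. The largest r between tested members after that step was 0.78, for SOC1 and SNZ, which had 0.37 across the 12 arrays.

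Whole seedlings mix tissues, and fewer cells of a type cannot be told apart here from less RNA per cell. Seed markers moved with genotype, with a summed level of 12 genes from 5658% to 9450% in arf2-8, from 335% to 3208% in gnc gnl, from 1599% to 5405% in the labelled-triple libraries and from 165% to 229% in WT. Of these 12, 8, 7 and 7 were higher in these 3 mutant groups than in WT, where 2.49%, 12.6% and 1.33% of all genes were. In WT, SESA1, SESA2, SESA4 and SESA5 were well above background on 0 arrays, and CRU2 and SESA3 on 1. These genes were tested only because a mutant group was bright, so they could hardly come out lower than WT. The counts are therefore a description only. Among the 8 shoot apical meristem markers, WUS, CLV3 and LAS were well above background on 0 of 12 arrays. Of the 5 tested, KNAT1, KNAT2 and CUC3 were higher in gnc gnl than in WT, by 0.37, 0.29 and 0.32 on the log2 scale. The other 2, STM and CLV1, lay below WT in gnc gnl and did not pass. STM was lower than in WT in arf2-8, at -0.37, and in the labelled-triple libraries, at -0.42. The summed level of the 8 ran from 425% to 444% in arf2-8, from 426% to 478% in gnc gnl, from 395% to 419% in the labelled-triple libraries and from 414% to 462% in WT. The phloem companion cell markers AHA3 and APL were higher in gnc gnl, by 0.33 and 0.28, and the sum of 3 markers ran from 988% to 1271% in arf2-8, from 1168% to 1339% in gnc gnl, from 919% to 1008% in the labelled-triple libraries and from 993% to 1057% in WT. Of 4 root markers, COBL9 was higher in gnc gnl than in WT, by 0.70, and the sum of the 4 ran from 69.0% to 102% in arf2-8, from 119% to 172% in gnc gnl, from 78.9% to 93.3% in the labelled-triple libraries and from 82.4% to 126% in WT. None of the 3 green leaf markers passed in any comparison of the genotypes. The part of these markers in the results was not tested.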

How the data were processed

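Whole-seedling RNA was hybridised to 12 Agilent arrays with 1 colour. The deposited scanner files hold linear spot intensity, and per the file headers it was background-subtracted within each array, with substitute values at background. Agilent Feature Extraction 10.7.3.1 made them, per the submitters' processing notes. The deposited series matrix held the same intensity, with 0 cells that differed.

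Control and outlier spots were left out and log2 of the processed intensity minus the array's 75th percentile was fitted with limma 3.58.1 in R 4.3.3 (lmFit and eBayes, 1 mean per genotype, 8 residual degrees of freedom; data.table, version 1.17.8; figures with matplotlib 3.10.9). Each adjusted p of the main fit uses Benjamini-Hochberg over 18977 genes. With each probe as a feature it runs over 26216 probes, and in each alternative over the genes tested there. A gene, represented by its brightest probe, was tested when well above background on all 3 arrays of a genotype with at least 2 values in each. Loci were named through RefSeq gene records (assembly TAIR10.1), and no coordinates are given, since the array design is older. An at-least fold sets the bright group's mean against the lowest signal well above background, or the probe's own signal if higher. The fit was tested on simulated data.

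Named genes were the members, ARF2, GNC and GNL, up to 6 list genes with the smallest p per comparison, and the 5 nearest to SOC1; CDF2, SVP, CO and the cell type markers are named outside this rule, after their values were seen. The members and lists were chosen with earlier results of these data known. Deviations of same-numbered libraries correlated above 0.1 for all 3 numbers between the labelled-triple libraries and gnc gnl (0.140, 0.132 and 0.349) and in no other comparison. Alternatives are given in the closing section. The number of arrays limits the precision.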

Additional observations from a re-analysis of the deposited data

How the results depend on the processing

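Over all alternatives, 273 of 331 values of called member changes kept direction and call, 58 lost the call and 0 changed sign. Of 521 values of uncalled changes, 17 passed and 9 changed sign. SEP3 in arf2-8 against WT and against gnc gnl kept its call in every alternative that tested it.

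Member counts that moved by over 1.5 times follow, with some others of the same setting. With the slide as a fixed block they were 1 in arf2-8, 0 in gnc gnl and 0 in the labelled-triple libraries against WT, 0 for those libraries against gnc gnl, 1 for arf2-8 against gnc gnl and 1 over any genotype; the other flowering genes gave 3, 1 and 0 against WT. Of all 18977 genes 451, 29, 6, 174, 411 and 632 passed, in the order of the member counts. The main fit gave 1080, 4664, 431, 2215, 6914 and 6326. A random slide block (consensus correlation 0.0251) kept the member count of all 6 pairwise comparisons. Within slide 2 the count was 0 for the labelled-triple libraries against arf2-8, where only 17 of all 18977 tested genes passed. Slides 1 and 3 each hold only 1 array of a mutant group, so no count is read from them. With no background filter, which tests all 10 members, counts were 0 for the labelled-triple libraries against WT, 3 against arf2-8, 1 against gnc gnl and 7 over any genotype. Of all 25297 genes tested, 221, 5009, 1427 and 8630 passed, in the same order. The members added there, FT, TSF, LFY and AP1, were at or near background, so their calls are not read as changes between genotypes. Requiring signal above background on all arrays gave 1 in arf2-8, 0 for the labelled-triple libraries against arf2-8, 1 against gnc gnl and 3 for arf2-8 against gnc gnl. Of all 17241 genes tested, 859, 1609, 2074 and 6259 passed, in the same order. The normexp correction, run on the median spot signal in place of the planned mean, gave 2 for the labelled-triple libraries against WT (756 of 18977 genes). Fitting only the groups compared gave 2 (5 other genes) there and 1 against gnc gnl, where 698 and 1125 of all 18977 genes passed. Demanding a log2 change of at least 1 gave 1, 1 and 0 against WT (3, 0 and 1 other genes), 0 for the labelled-triple libraries against gnc gnl and 1 for arf2-8 against gnc gnl. At that threshold 348, 429, 153, 312 and 984 of all 18977 genes passed, in the same order. Without the labelled-triple libraries, counts were 3 in arf2-8, 4 in gnc gnl and 4 between them, where 666, 4063 and 6366 of all 18977 genes passed. AGL24 then passed in both mutants against WT (limma adjusted p = 0.0320 and 0.0489). Smaller moves follow, with all genes passing in brackets. Against WT, arf2-8 had 3 with no filter (694), outlier spots kept (1081 of 19064) or only the groups compared (834). There gnc gnl had 2 with signal on all arrays (4393). Against gnc gnl, the labelled-triple libraries had 3 with the mean of all probes (1941 of 19021). There arf2-8 had 6 with no filter (9641), and 4 with only the groups compared (4646) or quantile normalization (7284). Over any genotype 5 passed with outlier spots kept (6561) or the mean of all probes (6059).

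With 1 array left out, members called ran from 1 to 3 in arf2-8, from 3 to 4 in gnc gnl and from 0 to 2 in the labelled-triple libraries against WT, from 1 to 2 for those against arf2-8, from 0 to 3 against gnc gnl, from 4 to 5 for arf2-8 against gnc gnl and from 4 to 5 over any genotype; other flowering genes ran from 5 to 10, from 11 to 17 and from 2 to 4 against WT.

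Changes of sign were all in uncalled values. SNZ in gnc gnl against WT was 0.048 with normexp, 0.010 with the slide block and from -0.14 to 0.14 with 1 array left out. SOC1 in arf2-8 was 0.026 with the slide block and on slide 1 alone. With the slide block SEP3 in the labelled-triple libraries against WT was -0.20, and AGL24 in arf2-8 against gnc gnl was 0.24. FUL in the labelled-triple libraries against arf2-8 ran from -0.025 to 0.16 with 1 array left out. The cause was not tested.

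With replicate number as a block, AGL24 in arf2-8 against WT passed (limma adjusted p = 0.0383). There 3 members passed (1026 of 18977 genes), and 5 over any genotype (5723). No other member call changed.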
